A study of Mus musculus with 6 samples.

Results

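The core planar cell polarity (PCP) genes are the small set whose products sort themselves to opposite sides of each cell of an epithelium, and 10 of them were followed here: Vangl1, Vangl2, Celsr1, Celsr2, Celsr3, Fzd3, Fzd6, Prickle1, Prickle2 and Ptk7. They were chosen by symbol, and all 10 were found among the 39179 genes of the count files. The samples were sensory epithelia of the cochlea, the hearing organ, and of the vestibule, the balance organ, from wild-type C57Bl/6J mice on the day of birth (P0). The 3 cochlear and 3 vestibular libraries each came from the RNA of 20 pooled ears, males and females together, and the study describes 10 mice as the source of 20 ears. Nothing in the labels says that the 3 libraries of a tissue came from separate RNA pools, so p-values measure only the spread between these libraries, which may be technical.

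In the inner ear, PCP signaling lines up the hair bundles of neighbouring hair cells, so that they share one direction in which sound or head movement excites them. CELSR cadherins bridge neighbouring cells, with Frizzled receptors and Dishevelled proteins gathered on one face of a cell and VANGL and PRICKLE proteins on the other. Loss of Vangl2, Celsr1 or Ptk7, or of Fzd3 together with Fzd6, is known to misorient hair bundles in mice.

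Libraries held 24464483 to 33664793 counts on genes, so that 1 CPM (a count scaled to the library's counts on genes) stood for 24.5 to 33.7 counts. Differential expression (DE) was tested with edgeR on the 14723 genes that reached 1 CPM in no fewer than 3 libraries, at a false discovery rate (FDR) of 0.05, and the log2 fold change (FC) is given as vestibule minus cochlea throughout. Of these genes 11.6% were called higher in the cochlea and 15.8% higher in the vestibule. On simulated counts the test called 60.0% of genes changed 2-fold but only 3.12% of those changed 1.5-fold. There only 64 genes were changed 1.5-fold, 70 genes 2-fold and 66 genes 4-fold, while 27.4% of all genes tested were called in the data. The FDR cutoff was therefore stricter on p in the simulation, and these shares do not give the power in the data. The 12 hair cell markers summed to 697 to 877 CPM in the cochlear and 1180.5 to 1532 CPM in the vestibular libraries, and none was at 0, with 8 of 12 called higher in the vestibule and 1 in the cochlea. The sum of the 8 supporting cell markers went the other way, with 748 to 912 CPM in the cochlea and 431 to 452 CPM in the vestibule, and 6 of 8 were called higher in the cochlea. In such bulk samples, fewer cells of a type and less RNA per cell cannot be told apart.

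Of the 10 members, Celsr1 and Prickle1 differed by the test, and both were higher in the cochlea. Each of the 10 members had at least 1 CPM in all 6 libraries. These are 2 of 10 members, against 11.6% of all genes tested that were called higher in the cochlea. No member was called higher in the vestibule, against 15.8%. In either direction 27.4% of all genes tested were called. The median log2 FC was -0.26 over the 10 members and 0.00 over all genes tested, and the median absolute log2 FC was 0.32 in both. In plain CPM, the 3 cochlear libraries lay entirely above the 3 vestibular ones for Celsr1, Fzd3 and Prickle1, a pattern shown by 14.3% of all genes tested. The reverse held for Fzd6 alone among the members, and for 27.5% of all genes tested.

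**Figure D1:**
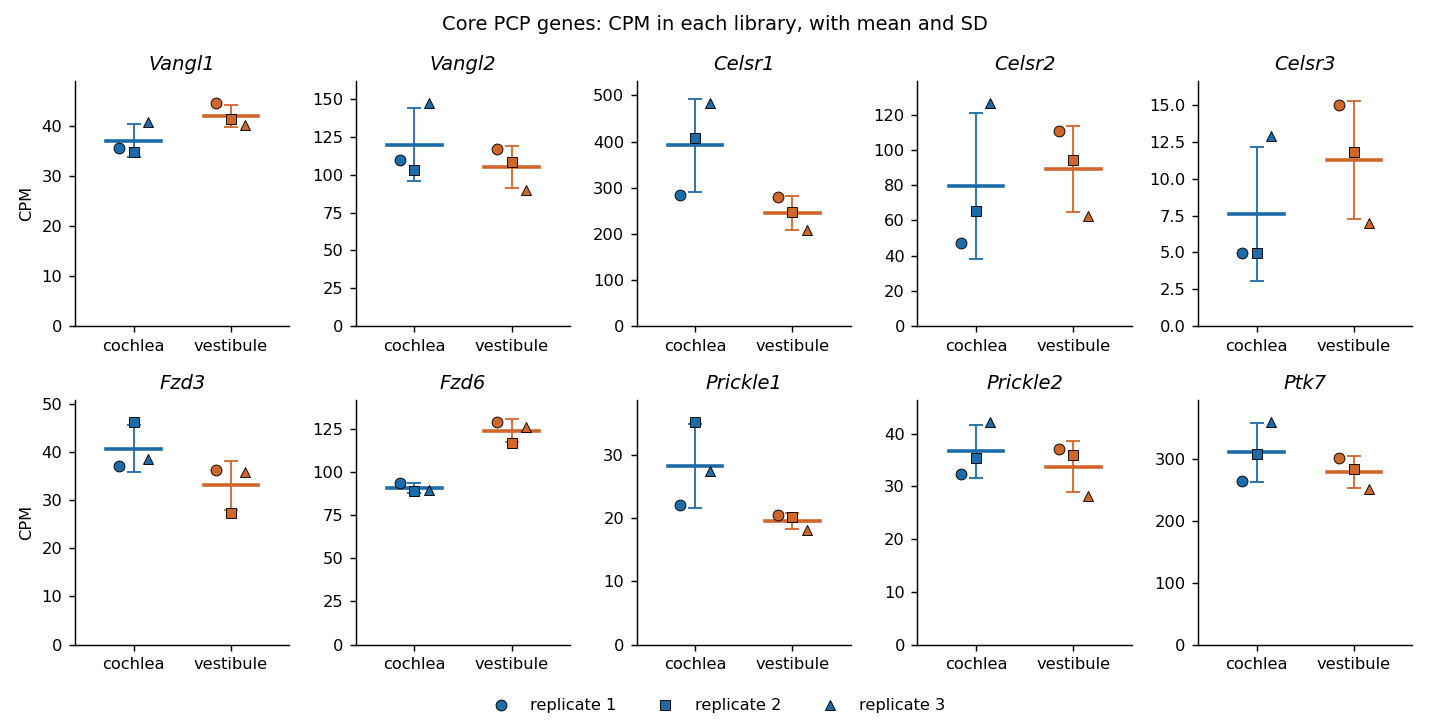
CPM of the 10 core PCP genes (vertical axes from 0, a separate scale for each gene) in the 3 cochlear and 3 vestibular libraries, with symbols for the replicates, lines for means and bars for SD (n = 3). The tissues separate for Celsr1, Fzd3, Prickle1 and Fzd6, and overlap for the other six genes.

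Celsr1 encodes an atypical cadherin that bridges neighbouring cells, and it was the most abundant of the 3 Celsr genes per length. It lies on the minus strand of chromosome 15 (chr15:85898929-86033777, GRCm38, ENSMUSG00000016028). It was measured at 283, 408 and 483 CPM in the cochlear libraries and at 279.8, 248 and 207 CPM in the vestibular ones. The lowest cochlear library, replicate 1, thus stood only just above the highest vestibular library, also replicate 1. The log2 FC was -0.80 ± 0.20 (SE; edgeR adjusted p = 0.0183), a 1.74-fold higher level in the cochlea. Of the marker lists, 6 of 8 supporting cell and 6 of 11 neuronal markers were also called higher in the cochlea, with median log2 FCs of -0.89 and -1.72, and their part in the Celsr1 and Prickle1 differences was not tested. The call did not hold when cochlea replicate 2 (adjusted p = 0.0729), vestibule replicate 2 (0.0765) or vestibule replicate 3 (0.0585) was left out, although the direction did, with log2 FC between -1.0035 and -0.65 over the 6 omissions.

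Celsr2 and Celsr3, the relatives of Celsr1 best known for their work in axon tracts and ependymal cilia, showed no difference that passed the test. Celsr2 (chr3:108390851-108415552, minus strand, ENSMUSG00000068740) had 47.1, 65.6 and 127 CPM in the cochlea and 111, 94.5 and 62.7 CPM in the vestibule. These ranges overlapped almost fully, and the log2 FC of 0.04 ± 0.33 (SE; edgeR adjusted p = 0.949) had a 95% interval from -0.72 to 0.79. It changed sign to -0.24 without cochlea replicate 1, to -0.07 without cochlea replicate 2 and to -0.09 without vestibule replicate 1. Celsr3 (chr9:108826320-108852969, plus strand, ENSMUSG00000023473) was the scarcest member, with 4.99, 4.96 and 12.9 CPM in the cochlea against 15.001, 11.8 and 6.99 CPM in the vestibule. Cochlea replicate 3 stood apart from the other two cochlear libraries. With all libraries the log2 FC was 0.44 ± 0.40 (SE; edgeR adjusted p = 0.448), and without cochlea replicate 3 it was 1.03 (adjusted p = 0.0309). It was 0.20 without cochlea replicate 1, 0.22 without cochlea replicate 2, 0.24 without vestibule replicate 1 and 0.68 without vestibule replicate 3, and did not pass in any of these 4 fits. The 11 neuronal markers, of which 10 were lower in that library than in the other two cochlear ones and Syt1 was highest there, summed to 721, 673 and 326 CPM in the cochlea and 398, 150.4 and 193 CPM in the vestibule. Their part in the Celsr3 values was not tested.

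Celsr2 and Celsr3 varied more between libraries of one tissue than the other members. Their coefficients of variation in CPM reached 52.1% and 60.1% over cochlear and 27.3% and 35.8% over vestibular libraries, against 2.97% to 25.7% and 5.29% to 15.4% for the other 8 members. From cochlea replicate 1 to replicate 3 the CPM differed 1.70-fold for Celsr1, 2.69-fold for Celsr2 and 2.59-fold for Celsr3, but 0.955-fold for Fzd6 and 1.04-fold for Fzd3. Between vestibule replicates 1 and 3 the same 3 genes differed 1.35-fold, 1.76-fold and 2.15-fold, against 1.02-fold for Fzd6. All 10 members were higher in vestibule replicate 1 than in replicate 3, as were 62.0% of all genes tested, and 9 of 10 were higher in cochlea replicate 3 than in replicate 1, as were 50.3% of all genes tested. The Celsr genes share long, GC-rich transcripts: the longest annotated one had 10879 bases and 58.8% GC for Celsr1, 10598 and 58.4% for Celsr2, and 11571 and 57.8% for Celsr3, where the medians over tested genes were 3422 bases and 49.8%.

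Genes of that kind, a class chosen after the data were seen, also differed between the same libraries. The 87 tested genes with a transcript over 8000 bases and a GC content over 55%, the 3 Celsr genes among them, had a median of 1.002 for log2(CPM + 0.5) in cochlea replicate 3 minus replicate 1, and of 0.97 in vestibule replicate 1 minus replicate 3. Over all genes tested with an annotated transcript these medians were 0.00 and 0.12. Fzd3, whose transcript is as long at 12734 bases but has 40.3% GC, had differences of 0.06 and 0.02. The 175 tested genes over 8000 bases with a GC content up to 42% had medians of 0.06 and 0.30. All 887 tested genes over 8000 bases had medians of 0.41 and 0.58. Between the tissues, in contrast, the 87 genes had a median log2 FC of 0.02. The 5 cartilage markers had a summed CPM of 11182, 14818 and 18469.8 in cochlea replicates 1 to 3 and of 17046, 14111 and 13562 in the vestibular ones. In the cochlea that sum followed Col2a1, the main collagen gene of cartilage, at 7736, 11514 and 14904 CPM, while Cnmd and Matn1 were lower in replicate 3 than in replicate 1. The 5 skeletal muscle markers summed to 232 CPM in cochlea replicate 3 and to at most 19.4 CPM elsewhere. The part of transcript length, GC content, cartilage or muscle in the Celsr values was not tested.

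**Figure D2:**
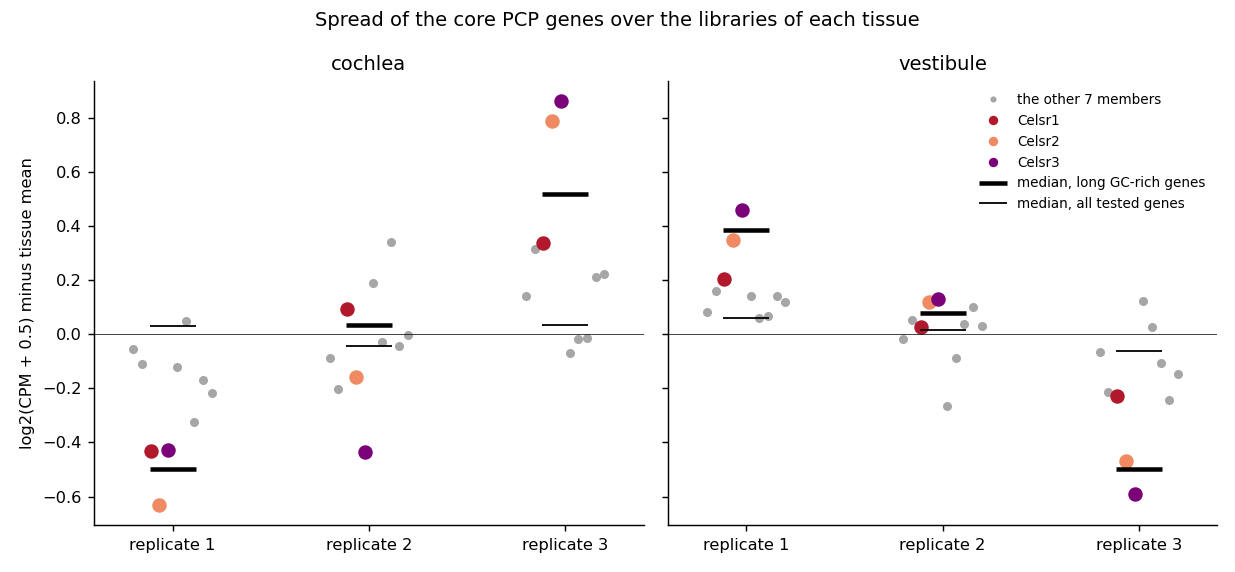
Each core PCP gene in each library as log2(CPM + 0.5) minus the mean of its tissue (vertical axis), for the cochlea and the vestibule, with thick bars for the median of the 87 long GC-rich genes and thin bars for the median of all tested genes. Celsr2 and Celsr3 are highest in cochlea replicate 3, at 0.79 and 0.86, where the 87 genes have a median of 0.52.

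An offset for transcript length and GC content, chosen after seeing the data, gives each library the median deviation of the genes in the same bin of both properties. With it the SE of the Celsr2 log2 FC was 0.13, and the value was 0.01 with adjusted p = 0.966. Celsr1 then had a log2 FC of -0.87 ± 0.15 (SE; edgeR adjusted p = 0.00246). In that fit 4 members were called higher in the cochlea, namely Celsr1, Prickle1 (adjusted p = 0.0178), Vangl2 (0.0315) and Ptk7 (0.041), beside 14.9% of all genes tested. Fzd6 alone of the members was called higher in the vestibule (0.0383), beside 17.3% of all genes tested.

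Within the Celsr family the share of each gene did not overlap between the tissues. Per length, on the deposited RPKM scale (reads per kilobase of gene, scaled to library size), Celsr1 made up 85.0%, 85.8% and 78.3% of the summed Celsr level in the cochlear libraries and 69.9%, 70.8% and 75.6% in the vestibular ones. The ratio of Celsr2 to Celsr1 counts within a library was 0.166, 0.161 and 0.262 in the cochlear libraries and 0.395, 0.382 and 0.303 in the vestibular ones, without overlap. The mean log2 ratio was 0.90 higher in the vestibule, and it stayed between 0.78 and 1.13 with any library left out. The Celsr3 to Celsr1 ratio was 1.31 higher on the same scale, also without overlap. In a two-sided exact permutation test each gave p = 0.1, the smallest value that 3 against 3 libraries allow, and 0.1 after adjustment over the 5 ratios tested, so the design could not reach 0.05. Both ratios share Celsr1, and how often ratios of other gene pairs lie apart was not computed.

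Prickle1 and Prickle2 encode the cytoplasmic partners of VANGL. Prickle1 (chr15:93499114-93595891, minus strand, ENSMUSG00000036158) was measured at 22.1, 35.3 and 27.5 CPM in the cochlea and 20.5, 20.1 and 18.2 CPM in the vestibule. The vestibular libraries lay close together and below every cochlear one, while cochlea replicate 2 was well above the other two. The log2 FC was -0.66 ± 0.19 (SE; edgeR adjusted p = 0.0357), a 1.58-fold higher level in the cochlea. Without cochlea replicate 2 the log2 FC was -0.43 (adjusted p = 0.103), and the call was also lost without vestibule replicate 1 (0.0973), replicate 2 (0.121) or replicate 3 (0.0828). It was lost as well without TMM scaling (log2 FC -0.53, adjusted p = 0.0694), a setting that moves the median log2 FC of all genes to 0.13.

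Prickle1 is the only called member with windows in the RefSeq promoter table used here (GRCm38.p6), so the 250 bases before its 2 annotated starts are shown, read along the gene. Both lie on the minus strand, the window of the distal start at chr15:93595903-93596152 and that of the proximal one at chr15:93519521-93519770. Capitals mark matches to CAGNTG on either strand, a form of the E box, to which basic helix-loop-helix factors such as the hair cell factor ATOH1 bind.
Prickle1 distal: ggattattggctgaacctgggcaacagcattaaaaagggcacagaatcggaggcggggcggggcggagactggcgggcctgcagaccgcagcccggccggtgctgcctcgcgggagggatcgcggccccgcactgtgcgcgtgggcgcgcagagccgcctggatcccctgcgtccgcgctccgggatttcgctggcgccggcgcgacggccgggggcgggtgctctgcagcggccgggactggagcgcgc
Prickle1 proximal: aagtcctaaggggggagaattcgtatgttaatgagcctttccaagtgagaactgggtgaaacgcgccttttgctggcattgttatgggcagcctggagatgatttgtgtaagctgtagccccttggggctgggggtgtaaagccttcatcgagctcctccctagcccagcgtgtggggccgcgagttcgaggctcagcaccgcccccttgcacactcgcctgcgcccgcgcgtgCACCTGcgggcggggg
The distal window held 34 CG dinucleotides and 74% GC and no match, and the proximal one 16 CG dinucleotides, 60.8% GC and 1 match. Over all 32851 windows of this length in the table, the medians were 6 CG dinucleotides and 52.4% GC, and 44.8% held a match. A count per gene does not tell which start was used. Of the 10 members, 6 had a window there, namely Vangl2, Celsr2, Celsr3, Prickle1, Prickle2 and Ptk7.

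Prickle2 (chr6:92370908-92706155, minus strand, ENSMUSG00000030020) had 32.3, 35.3 and 42.2 CPM in the cochlea and 37.0, 35.9 and 28.2 CPM in the vestibule. The tissues overlapped, and the log2 FC of -0.24 ± 0.15 (SE; edgeR adjusted p = 0.257) had a 95% interval from -0.58 to 0.09. The log2 FC was -0.15 without vestibule replicate 3 or cochlea replicate 3, and -0.12 without TMM scaling. The ratio of Prickle2 to Prickle1 counts was 1.46, 1.002 and 1.53 in the cochlear libraries and 1.80, 1.79 and 1.55 in the vestibular ones. The 2 ranges nearly touched, and the mean log2 ratio was 0.38 higher in the vestibule (exact permutation p = 0.1, adjusted 0.1). This difference fell to 0.19 when cochlea replicate 2 was left out.

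The Frizzled receptors Fzd3 and Fzd6, which act redundantly in bundle orientation, had fold changes of opposite sign, neither of which passed the test. Fzd3 (chr14:65192449-65262463, minus strand, ENSMUSG00000007989) had 37.2, 46.3 and 38.7 CPM in the cochlea and 36.3, 27.3 and 35.9 CPM in the vestibule. Its log2 FC was -0.42 ± 0.17 (SE; edgeR adjusted p = 0.109), and it was -0.27 without vestibule replicate 2 and -0.24 with the offset for length and GC content. Fzd6 (chr15:39006034-39038188, plus strand, ENSMUSG00000022297) had 93.8, 88.8 and 89.6 CPM in the cochlea and 129, 117 and 126 CPM in the vestibule, with coefficients of variation of 2.97% and 5.29%. The groups did not overlap, with a log2 FC of 0.33 ± 0.12 (SE; edgeR adjusted p = 0.0653). Fzd6 passed the threshold without TMM scaling (log2 FC 0.45, adjusted p = 0.0157) and with limma on the deposited log2 RPKM (adjusted p = 0.0107), neither of which corrects for RNA composition. It also passed with the offset for length and GC content, a fit that kept TMM scaling (log2 FC 0.33, edgeR adjusted p = 0.0383). An antisense gene, Gm26704, overlaps 3.15% of the exonic bases of Fzd6, and the strand setting of the counting was not given in the sources used here.

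A ratio within a library does not depend on such scaling. The Fzd3 to Fzd6 count ratio was 0.397, 0.522 and 0.432 in the cochlear libraries and 0.281, 0.234 and 0.284 in the vestibular ones. All cochlear ratios were above all vestibular ones, and the mean log2 ratio was 0.75 lower in the vestibule, a 1.68-fold difference (exact permutation p = 0.1, adjusted 0.1). Leaving out any library kept the log2 difference between -0.84 and -0.64. Per length, Fzd6 made up 66.2% to 72.1% of the sum of both in the cochlea and 78.2% to 81.4% in the vestibule.

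**Figure D3:**
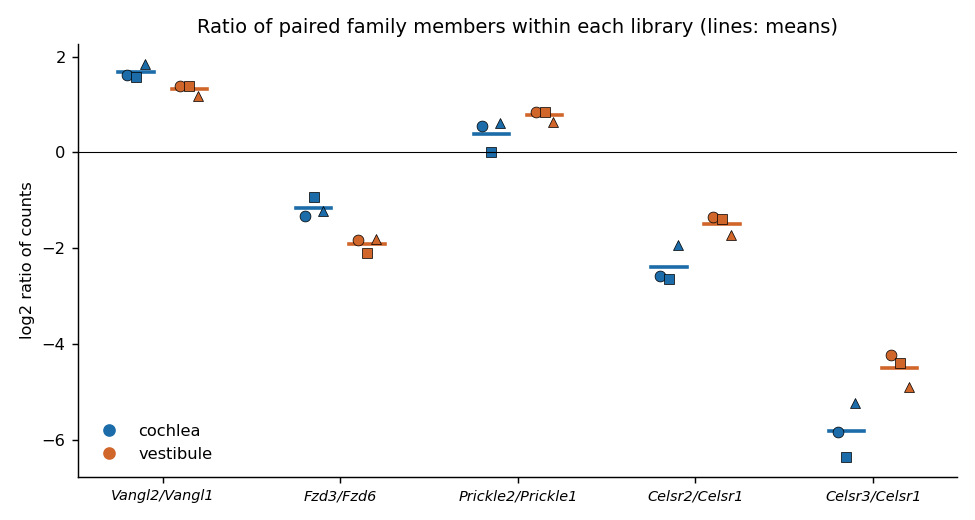
Log2 ratio of the counts of 2 family members within each library (vertical axis) for 5 pairs of genes, with circles, squares and triangles for replicates 1, 2 and 3 and lines for the tissue means. In each of the 5 pairs the 3 cochlear ratios lie apart from the 3 vestibular ones, and the difference of the means is largest for Celsr3/Celsr1, at 1.31. Celsr2/Celsr1 and Celsr3/Celsr1 share Celsr1. The CPM of single genes lay apart for 14.3% (cochlea above) and 27.5% (vestibule above) of all genes tested, and the share for ratios of other gene pairs was not computed.

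Vangl1 and Vangl2 encode the membrane proteins on the cell face opposite to Frizzled, and Vangl2 is the gene altered in looptail mice. Vangl2 (chr1:172000960-172028444, minus strand, ENSMUSG00000026556) had 109.7, 103 and 147 CPM in the cochlea and 117, 108 and 90.1 CPM in the vestibule. The groups overlapped, and the log2 FC was -0.31 ± 0.15 (SE; edgeR adjusted p = 0.172), with a 95% interval from -0.66 to 0.04. The log2 FC was -0.16 without cochlea replicate 3 and -0.19 without TMM scaling. Vangl1 (chr3:102153583-102204693, minus strand, ENSMUSG00000027860) had 35.5, 34.6 and 40.8 CPM in the cochlea and 44.4, 41.4 and 40.1 CPM in the vestibule. Its log2 FC of 0.06 ± 0.12 (SE; edgeR adjusted p = 0.729) had a 95% interval from -0.21 to 0.33, so a change of 2-fold lies outside it. It stayed between 0.02 and 0.12 with any library left out and was 0.18 without TMM scaling. Vangl2 counts were 3.09, 2.97 and 3.62 times those of Vangl1 in the cochlea and 2.63, 2.62 and 2.25 times in the vestibule, a log2 difference of -0.37 without overlap (exact permutation p = 0.1, adjusted 0.1).

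Ptk7, a receptor-like protein with an inactive kinase domain, had the most mRNA per length of the 10. It lies on the minus strand at chr17:46564471-46629504 (ENSMUSG00000023972). It was measured at 265, 308 and 361 CPM in the cochlea and 303, 285 and 252 CPM in the vestibule. The groups overlapped, and the log2 FC was -0.28 ± 0.14 (SE; edgeR adjusted p = 0.194), with a 95% interval from -0.61 to 0.05. The log2 FC was -0.18 without cochlea replicate 3 and -0.15 without TMM scaling.

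Per length, the members spanned 110.7-fold in the cochlea and 67.2-fold in the vestibule between the highest and lowest mean RPKM. Ptk7 was first in both tissues, at 73.3 ± 11.2 RPKM in the cochlea and 65.9 ± 6.06 RPKM in the vestibule (SD, n = 3). Celsr1 was second in the cochlea at 35.5 ± 9.14 RPKM, above Fzd6 at 22.0 ± 0.651. In the vestibule that order was turned, with Fzd6 at 30.1 ± 1.59 RPKM and Celsr1 at 22.2 ± 3.30, and in both tissues the libraries of the 2 genes did not overlap. Vangl2 came next in each tissue. Fzd3, Vangl1, Celsr2 and Prickle1 followed in the cochlea at 9.65 to 6.52 RPKM, where each overlapped the next. In the vestibule Vangl1 preceded Fzd3 and Celsr2, and of the neighbours after Vangl2, Fzd3 overlapped Celsr2 and Prickle1 overlapped Prickle2. Celsr3 was last in both, at 0.662 ± 0.397 RPKM in the cochlea and 0.980 ± 0.351 in the vestibule (SD, n = 3), and 10.4% and 11.4% of the genes in the deposited matrix had a lower mean.

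The order depends on the gene lengths used, and those behind the deposited RPKM were not given in the sources used here. With counts per kilobase of GENCODE vM21 exons and TMM scaling, 5 of 10 members changed place in each tissue, with Fzd3 moving to the place before Celsr3 in both. Ptk7, Celsr1, Fzd6 and Vangl2 kept the first places in the same order, but in the vestibule Celsr1 (19.0 to 23.4) then overlapped Fzd6 (23.0 to 26.5).

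**Figure D4:**
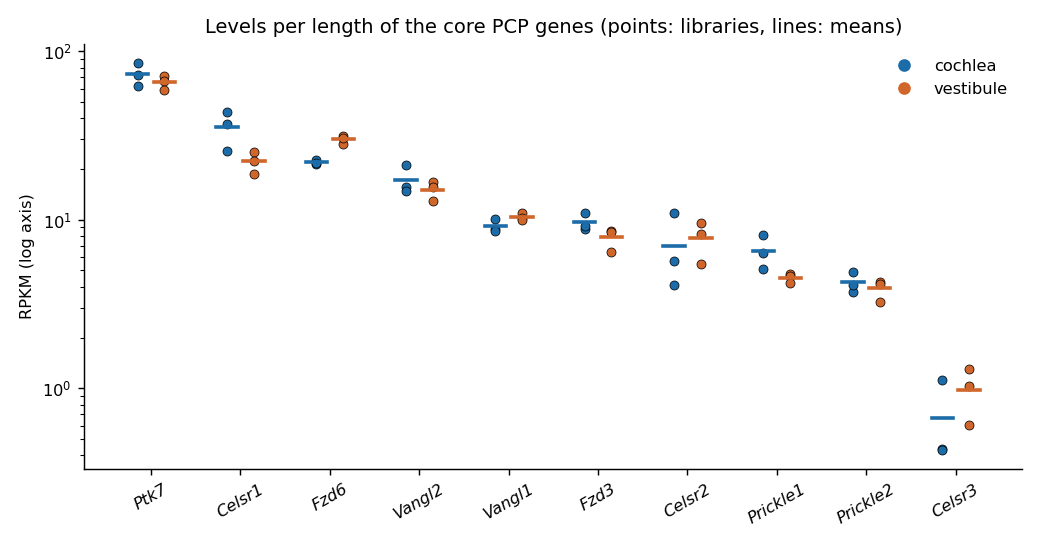
RPKM of the 10 core PCP genes on a log axis, with points for the 3 libraries of each tissue and lines for the means. Ptk7 is highest in both tissues and Celsr3 lowest, and Celsr1 lies above Fzd6 in the cochlea and below it in the vestibule.

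The other genes of the pathway were taken as lists written with earlier results of these data known. Among the Dishevelled genes, the Diego homologue Ankrd6 and the remaining Prickle genes, 1 of 5 tested was higher in the vestibule and none in the cochlea. Over all genes tested, 15.8% were called higher in the vestibule and 11.6% in the cochlea, so 1 call in 5 is near the background, and the median log2 FC was 0.19 for the list and 0.00 over all genes. Ankrd6 had 26.5, 30.8 and 34.2 CPM in the cochlea and 89.4, 89.9 and 67.6 CPM in the vestibule (log2 FC 1.31 ± 0.15, SE; edgeR adjusted p = 0.000315). Every vestibular library was above every cochlear one. Prickle4 reached at most 0.195 CPM and was not tested.

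Of the 8 other Frizzled genes, 4 were higher in the cochlea, against 11.6% of all genes tested, and 1 in the vestibule, against 15.8%, and the median log2 FC of the 8 was -0.43. Fzd8 had 44.8 to 55.3 CPM in the cochlea against 20.1 to 22.0 CPM in the vestibule (log2 FC -1.38). Fzd2 had 127 to 158 CPM in the cochlea against 87.7 to 93.5 CPM in the vestibule (log2 FC -0.83). Fzd9 had a log2 FC of -0.66, a call lost without vestibule replicate 2 (edgeR adjusted p = 0.0554). Fzd10 had a log2 FC of -0.62, a call lost without vestibule replicate 2 (0.0834) or replicate 3 (0.052), without TMM scaling (0.062) and with limma on log2 RPKM (0.0521), and without vestibule replicate 2 the cochlear count was 2. Fzd5, at 7.60 to 10.9 CPM in the cochlea and 14.8 to 15.3 CPM in the vestibule, had a log2 FC of 0.64 (edgeR adjusted p = 0.0269), a call lost whichever single library was left out except cochlea replicate 3. The part of the supporting cell and neuronal markers, which were also higher in the cochlea (medians of -0.89 and -1.72), was not tested for the Frizzled genes, nor for Fat3 and Daam1.

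The noncanonical Wnt list held ligands, their receptors and the cofactor Cthrc1, and 5 of its 7 genes were higher in the vestibule, against 15.8% of all genes tested, and none in the cochlea, against 11.6%. The median log2 FC of the 7 was 1.05. Wnt11, a ligand, had 1.59, 2.01 and 1.68 CPM in the cochlea and 8.61, 9.81 and 10.8 CPM in the vestibule, a log2 FC of 2.34 ± 0.23 (SE). The receptor Ror1 had a log2 FC of 1.40, the ligand Wnt5b of 1.34 and Cthrc1, which stabilizes ligand and receptor complexes, of 1.05. The call of the receptor Ror2 (log2 FC 0.67) was lost without vestibule replicate 2 (edgeR adjusted p = 0.0588). For each of the 4 genes Wnt11, Ror1, Wnt5b and Cthrc1 every vestibular library was above every cochlear one. Wnt5a, the most abundant ligand of the list in CPM, had 298 to 357 CPM in the cochlea and 343 to 359.7 CPM in the vestibule and a log2 FC of -0.02 ± 0.12 (SE; edgeR adjusted p = 0.920); it is named after its values were seen. The 8 mesenchyme markers summed to 5021 to 5747 CPM in the cochlea and 7598 to 8757 CPM in the vestibule. Col1a2 gave the largest part of that sum, and 3 of the 8 were called higher in the vestibule and 2, Pou3f4 and Lum, in the cochlea (log2 FC of Lum -2.51). Higher in the vestibule were also 4 of 5 endothelial markers, with sums of 60.2 to 96.2 CPM in the cochlea against 339.9 to 487 CPM, and all 5 macrophage markers, with 69.3 to 78.5 against 275 to 314 CPM. Of the 6 Schwann cell and glia markers 3 were higher in the vestibule and 1 in the cochlea, with sums of 575 to 778 CPM in the cochlea against 1143 to 1524 CPM. The part of these cell types in these differences was not tested.

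In the Fat and Dachsous list, the giant cadherins of the parallel polarity pathway with the kinase Fjx1, 1 of 6 tested genes was called, higher in the cochlea, against 11.6% of all genes tested, and the median log2 FC was -0.42. Fat3 had 17.5, 27.4 and 31.5 CPM in the cochlea and 7.87, 5.30 and 4.79 CPM in the vestibule, a log2 FC of -2.22 ± 0.26 (SE). Each cochlear library was above each vestibular one. The identifier used here for Dchs2 was absent from the counts, so Dchs2 was not analysed. Among 18 effectors and regulators of PCP signaling, 2 were higher in the vestibule, 1 in the cochlea and 15 did not pass. Over all genes tested these shares were 15.8% and 11.6%, both above those of the list, and the median log2 FC was -0.04. The formin Daam1 was higher in the cochlea, at 73.9 to 79.97 CPM against 29.0 to 50.4 CPM (log2 FC -1.07). The kinase gene Rock2 was higher in the vestibule, at 52.0 to 87.1 CPM against 24.9 to 37.2 CPM (log2 FC 0.94). Scrib, a polarity scaffold that interacts genetically with Vangl2, had 52.8, 58.5 and 96.3 CPM in the cochlea and 168, 138 and 90.6 CPM in the vestibule. Its libraries overlapped, and its call (log2 FC 0.81 ± 0.26, SE; edgeR adjusted p = 0.0475) was lost when cochlea replicate 1 or 2 or vestibule replicate 1 or 2 was left out.

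**Figure D5:**
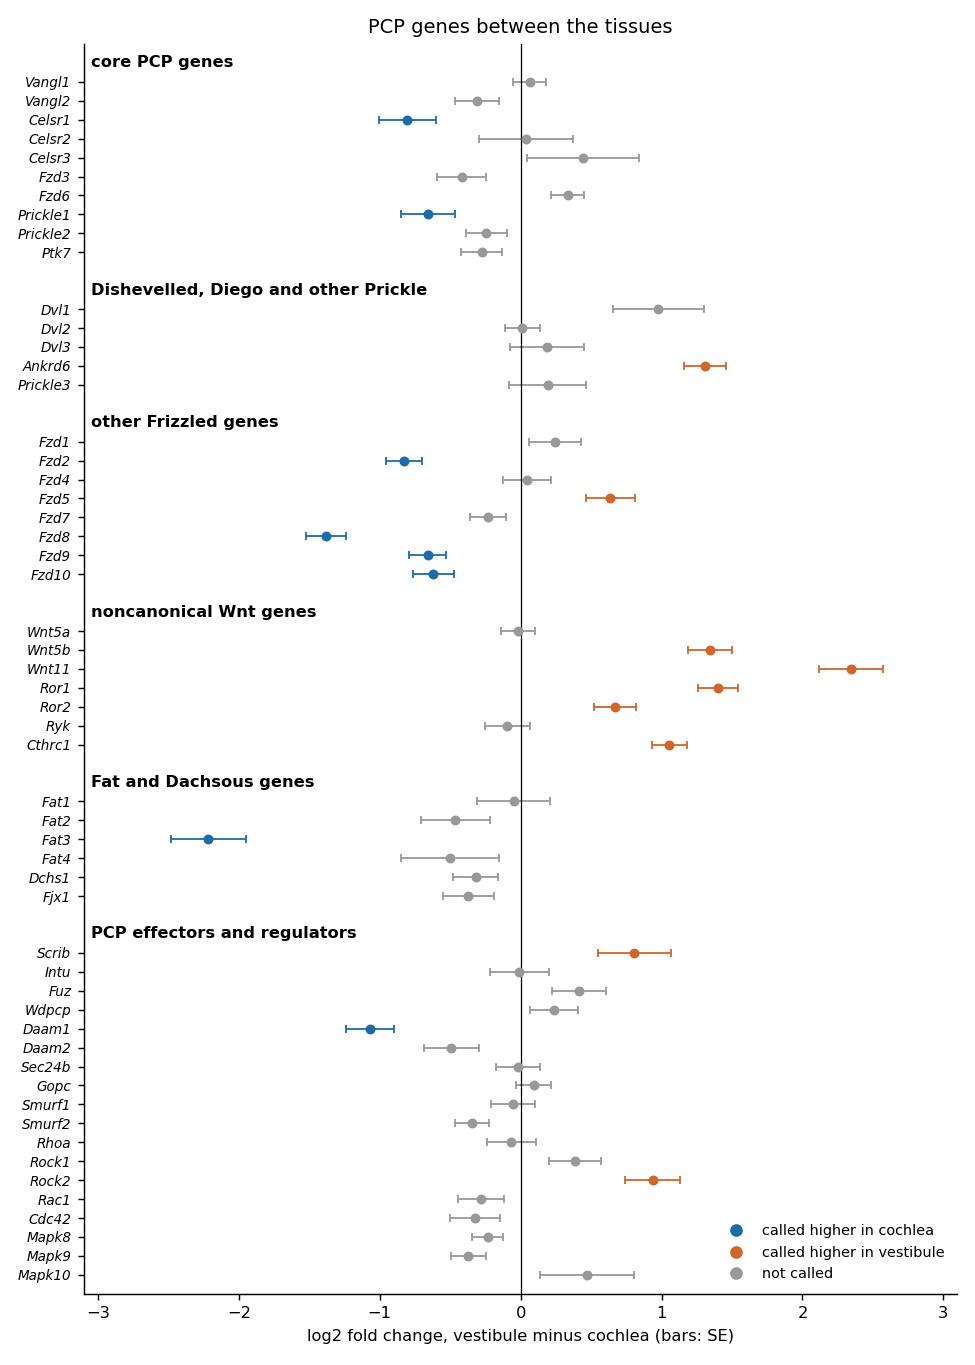
Log2 fold change, vestibule minus cochlea (horizontal axis, bars for SE), of the core PCP genes and the 5 other lists, with blue for genes called higher in the cochlea, orange for the vestibule and grey for genes not called. The noncanonical Wnt genes Wnt11, Ror1, Wnt5b and Cthrc1 lie at 1.05 to 2.34 and the core PCP genes between -0.80 and 0.44.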

How the data were processed

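RNA-seq libraries made with a stranded mRNA kit were aligned by the authors to GRCm38 with TopHat2 2.1.0, and the deposited counts are whole read pairs per Ensembl gene from HTSeq, without normalization (tools per the submitters' processing notes). The authors also deposited log2 RPKM for 14722 genes, made with edgeR 3.4.2, with no value at 0 and no TMM scaling. The 5 summary lines of each count file, 18.5% to 20.6% of the listed counts, stayed out of library sizes and tests. After TMM scaling, the quasi-likelihood test of edgeR 4.0.16 (R 4.3.3) was run on genes that reached 1 CPM in 3 libraries, with Benjamini-Hochberg adjustment over all genes tested, and the test was tried on simulated data. Samples were grouped by the tissue in their titles. Ratios within a library were compared by exact permutation. Positions, lengths and GC content are from GENCODE vM21 (GRCm38), and 37607 of 39179 identifiers matched a symbol. Alternatives were DESeq2 1.42.0, limma-voom and limma 3.58.1, other scalings and filters, a replicate block, a looser threshold, and leaving out each library in turn. The members and lists were chosen with earlier results of these data known. The genes named were all members, and of every other pathway list the called genes and those not tested. The plan named only the 4 called genes with the largest change in a list, and Fzd10 and Ror2 were named beyond it. Same-numbered libraries of the 2 tissues had correlations of their deviations of -0.19, -0.28 and -0.49, so the numbers do not pair them. Figures were drawn with matplotlib.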

Additional observations from a re-analysis of the deposited data

How the results depend on the processing

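All 10 members kept their direction under DESeq2, limma-voom, limma on the log2 RPKM and every other scaling and filter tried, and the one that changed sign with a library left out was Celsr2 (-0.24, -0.07 and -0.09 in a range of -0.24 to 0.51). With 1 library left out, the members called higher in the cochlea numbered 0 to 2 and in the vestibule 0 to 1, and the genes called numbered 925 to 1863 and 1342 to 2694, where all libraries gave 1711 and 2325. The lowest counts came without vestibule replicate 2, and without cochlea replicate 2 the cochlear count was 1035. Without TMM scaling, and likewise with limma on log2 RPKM, 1 member (Celsr1) was called higher in the cochlea and 1 (Fzd6) in the vestibule, beside 1251 and 2754 of all genes tested without TMM and 1261 and 2777 with limma. With the replicate block no member was called (Celsr1 adjusted p = 0.0825, Prickle1 0.09), 1009 genes were called higher in the cochlea and 1609 in the vestibule, and Fzd5, Fzd10 and Scrib lost their calls, which left 3 other Frizzled genes higher in the cochlea and 0 in the vestibule, and 1 effector higher in the vestibule. Since the numbers do not pair the libraries, the block is a check only.

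In the other lists, leaving out 1 library gave 2 to 4 other Frizzled genes higher in the cochlea and 0 to 1 in the vestibule, 4 to 5 noncanonical Wnt genes and 1 to 2 Dishevelled and Prickle kin higher in the vestibule, 1 to 2 Fat and Dachsous genes higher in the cochlea, and 1 to 3 effectors higher in the vestibule. Dvl1, named after its values were seen, had a log2 FC of 0.98 (adjusted p = 0.0523) and made 2 Dishevelled and Prickle kin called under DESeq2, upper quartile factors, no filter and an FDR of 0.1 with a fold of 1.3. Effectors higher in the cochlea numbered 3 under DESeq2, 2 with RLE factors and 2 at the looser threshold. The offset for length and GC content gave 4 members higher in the cochlea and 1 in the vestibule, 2 Dishevelled and Prickle kin higher in the vestibule, 2 Fat and Dachsous genes and 2 effectors higher in the cochlea. These causes were not tested. The differences of the 5 ratios within a library kept their sign under an added 0.5 count and with any library left out. RPKM gives the same differences by construction, since the gene lengths cancel between libraries, so it is no separate check. With 3 libraries a tissue, 3.12% of simulated 1.5-fold changes and 60.0% of 2-fold changes were called. Far fewer genes changed in the simulation than were called in the data, so these shares do not give the power in the data. Single outlying libraries were not tested for.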
